A study of Homo sapiens with 9 samples.

Results

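The 9 genes described here are the thyroid identity and hormone genes Tg, Tshr, Slc5a5, Pax8, Nkx2-1, Foxe1, Hhex, Duox2 and Dio1. They were chosen by symbol for their known roles in the thyroid, and make up 9 of the 17369 genes in the expression table. The tumors were grown from TBP3743, a mouse anaplastic thyroid cancer line. It came from B6129SF1 hybrid mice that carried an activating Braf mutation and a Trp53 deletion, both restricted to the thyroid, so all groups share both lesions. In the original/B6129SF1 group the original cells were injected into the left thyroid of B6129SF1 mice. Adapted cells, recovered after passage round 3 under the skin of C57BL/6 mice, were injected into the same site in B6129SF1 mice (adapted/B6129SF1) or in C57BL/6 mice (adapted/C57BL/6). The hosts were 6-week-old females given 100000 cells each, and 3 tumors per group were taken for RNA sequencing 14 days later. All 9 tumors go back to 1 line, so the tumors of a group are separate animals but not separately derived cancers.

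Follicular cells of the thyroid are specified and maintained by a set of transcription factors, Nkx2-1, Pax8, Foxe1 and Hhex, that together switch on the genes for hormone production. Thyrotropin acts on its receptor, Tshr, and the sodium iodide symporter, Slc5a5, brings iodide into the cell. Duox2 makes the hydrogen peroxide used to iodinate thyroglobulin, Tg, the protein scaffold of the hormone. Dio1 converts thyroxine to its active form. Anaplastic thyroid cancer is known for losing much of this program. An orthotopic tumor grows inside the gland, so a piece of it can hold normal follicles of the host as well as tumor cells.

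The tumors are labelled as cancer epithelial cells. The simple-epithelium keratins Krt8 and Krt18 were abundant in all of them, at 153 to 615 and 110 to 390 FPKM, whereas Epcam and Cdh1 (E-cadherin) were weak, at 0.0949 to 2.5 and 1.03 to 4.48. The tumors thus carried some epithelial markers and little of others.

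The 9 genes spanned a wide range of levels, given throughout as FPKM (fragments per kilobase of transcript, scaled to the size of the library, so that levels are per unit of transcript length). Over the 9 tumors the mean level was 34.4 for Nkx2-1, 24.5 for Hhex, 9.60 for Tg and 0.535 for Pax8. The other 5 genes had mean levels of 0.0806 for Foxe1, 0.0481 for Slc5a5, 0.0318 for Tshr, 0.0206 for Duox2 and 0.0149 for Dio1. The ranges of Nkx2-1 and Hhex overlapped, and the range of Tg, from 0.0153 to 31.0, reached from the level of the weakest genes to that of the strongest. Pax8 lay between 0.0174 and 1.61, below every Nkx2-1 and Hhex value. The 5 weakest genes overlapped one another and never reached 0.25.

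Only Nkx2-1, Hhex and Tg reached 1 FPKM in at least 3 tumors, the minimum for the test across genes, and the other 6 were below it. In that test, limma on log2(FPKM + 1) over 10263 genes, a gene was called at a Benjamini-Hochberg adjusted p under 0.05 with an absolute log2 difference above 1. None of the 3 genes tested was called in any comparison. Over all genes, 330 (3.22%) were called in adapted/B6129SF1 against original/B6129SF1, of which 2.36% of genes tested were higher and 0.857% lower. In adapted/C57BL/6 against original/B6129SF1 it was 317 (3.09%, with 2.42% higher and 0.672% lower), and in all adapted tumors against original/B6129SF1 it was 348 (3.39%, with 2.53% higher and 0.857% lower). Between the adapted groups 3 genes (0.0292%) were called. At an unadjusted p under 0.05, 1 of the 3 genes, Hhex, passed in each comparison with original/B6129SF1 and none passed between the adapted groups, against 2721, 2502, 3014 and 643 of all genes in the order adapted/B6129SF1, adapted/C57BL/6, all adapted and adapted/C57BL/6 against adapted/B6129SF1. All comparisons with original/B6129SF1 use the same 3 original tumors and are not independent of each other.

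**Figure D1:**
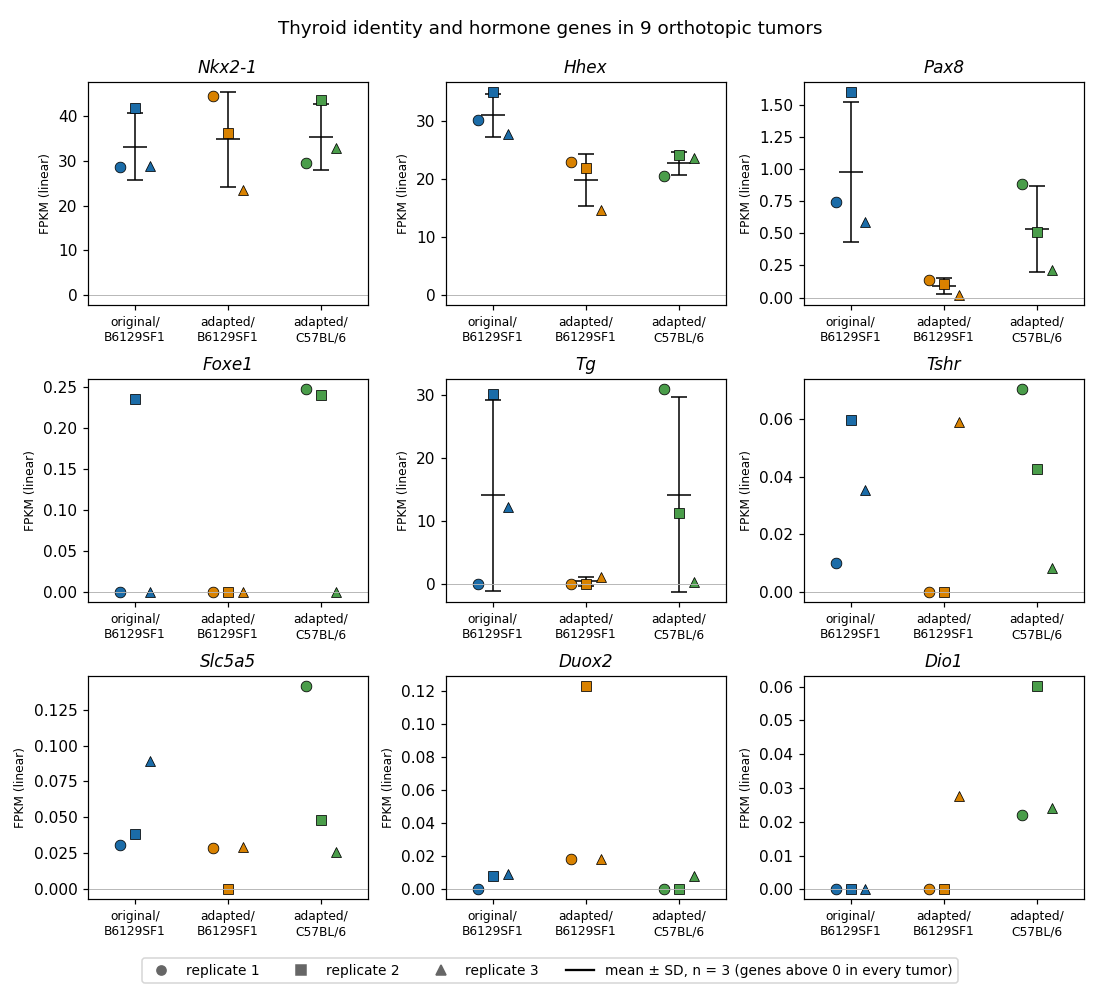
Levels of the 9 thyroid genes in each tumor, in FPKM, with 1 panel per gene and its own linear axis. Points are single tumors, and bars give the mean ± SD of 3 tumors for the 4 genes above 0 in every tumor. Nkx2-1 stayed between 23.5 and 44.5 in all groups, whereas Tg was above 11 in 4 tumors and at or below 1.20 in the other 5.

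Nkx2-1, the homeobox factor that marks thyroid and lung epithelium, was present at similar levels in every group. It measured 28.6, 41.7 and 28.9 FPKM in original/B6129SF1 replicates 1 to 3, 44.5, 36.2 and 23.5 in the adapted/B6129SF1 tumors, and 29.5, 43.5 and 32.7 in the adapted/C57BL/6 tumors. The groups overlapped, and both the highest and the lowest tumor belonged to adapted/B6129SF1. The group means were 33.1 ± 7.47, 34.7 ± 10.6 and 35.2 ± 7.34 FPKM (SD, n = 3 each). In every tumor the gene stood between percentiles 80.2 and 90.0 of all genes.

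Differences in Nkx2-1 between groups were smaller than the spread within them. In limma with Benjamini-Hochberg adjustment the log2 difference was 0.04 (SE 0.25, adjusted p = 0.932) for adapted/B6129SF1 minus original/B6129SF1 and 0.09 (adjusted p = 0.859) for adapted/C57BL/6 minus original/B6129SF1. The 95% confidence intervals of these differences were -0.52 to 0.61 and -0.48 to 0.66. A difference of 1 on the log2 scale therefore lay outside both intervals. Between the adapted groups the log2 difference was 0.05 with an interval of -0.52 to 0.62 (limma adjusted p = 0.982). The highest and lowest tumors differed 1.90-fold, and the SD over the 9 tumors was 0.31 on the log2 scale, or percentile 71.3 among genes tested.

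Hhex, a homeobox factor of early thyroid, liver and endothelial development, was lower in every adapted tumor than in any original tumor. It measured 30.1, 34.9 and 27.8 FPKM in the original/B6129SF1 tumors and 22.9, 21.9 and 14.7 in the adapted/B6129SF1 tumors. The adapted/C57BL/6 tumors had 20.4, 24.0 and 23.5 FPKM. The highest adapted value, 24.0, was below the lowest original value, 27.8, while the adapted groups overlapped each other. Non-overlap in this direction was common among the genes tested, at 15.9% for adapted/B6129SF1, 17.9% for adapted/C57BL/6 and 10.6% for all adapted tumors against original/B6129SF1. In bulk tumors, fewer cells of a type and less RNA per cell cannot be told apart.

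The group means of Hhex were 30.9 ± 3.65, 19.8 ± 4.50 and 22.6 ± 1.95 FPKM (SD, n = 3 each) in original/B6129SF1, adapted/B6129SF1 and adapted/C57BL/6. The log2 difference was -0.63 (SE 0.17, adjusted p = 0.0540) for adapted/B6129SF1 and -0.43 (adjusted p = 0.163) for adapted/C57BL/6 in limma, with 95% intervals of -1.02 to -0.25 and -0.81 to -0.05. For all adapted tumors against original/B6129SF1 it was -0.53 (SE 0.15, limma adjusted p = 0.0482). This adjusted p is under 0.05 but the difference is below the fold threshold, and 5.84% of genes tested were lower by adjusted p alone in this comparison. That p was under 0.05 in 5 of 17 alternative settings and ranged from 0.0312 to 0.139, while the difference kept its sign in all of them. It was above 0.05 in settings that included other scaling (0.0504), no filter (0.0707) and the 2 tumors richest in muscle transcripts left out (0.0566, difference -0.40). It was also above 0.05 without any 1 of the original/B6129SF1 tumors (0.0942 to 0.139), any 1 of the adapted/C57BL/6 tumors (0.0701 to 0.0927), or adapted/B6129SF1 replicate 2 (0.0577), but not without adapted/B6129SF1 replicate 1 or 3. In adapted/B6129SF1 against original/B6129SF1 the adjusted p was 0.0475 without adapted/B6129SF1 replicate 1, the 1 alternative of 17 in which it was under 0.05. Between the adapted groups the log2 difference was 0.21 (95% interval -0.18 to 0.59, limma adjusted p = 0.883).

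Endothelial and blood cells can also express Hhex, and the summed levels of their markers stand beside it here. The summed level of 8 endothelial markers was 78.1 to 98.8 FPKM in original/B6129SF1, 82.9 to 132 in adapted/B6129SF1 and 98.8 to 118 in adapted/C57BL/6. All 8 had positive log2 differences in each comparison with original/B6129SF1, none was called, and none was at 0 in any tumor. For B cells, the summed level of 5 markers was 0.183 to 0.487, 0.305 to 1.45 and 1.03 to 1.46 FPKM in the same order. The summed level of 5 leukocyte markers was 283 to 314 FPKM in original/B6129SF1, 432 to 632 in adapted/B6129SF1 and 355 to 700 in adapted/C57BL/6, and that of 6 macrophage markers was 930 to 1290, 1341 to 1684 and 769 to 1767. The part of these cells in the Hhex level was not tested.

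Hhex was 1.05, 0.837 and 0.961 times the Nkx2-1 level in the original/B6129SF1 tumors. This ratio was 0.516, 0.603 and 0.624 in adapted/B6129SF1 and 0.692, 0.552 and 0.718 in adapted/C57BL/6. The original tumors had near-equal levels of both factors, and all 6 adapted tumors had less Hhex than Nkx2-1.

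Pax8, the paired-box factor that partners Nkx2-1 at the Tg promoter, was scarce in all tumors and scarcest in adapted/B6129SF1. It measured 0.748, 1.61 and 0.592 FPKM in the original/B6129SF1 tumors. It measured 0.136, 0.108 and 0.0174 FPKM in adapted/B6129SF1 and 0.886, 0.511 and 0.212 in adapted/C57BL/6. The adapted/B6129SF1 tumors lay below every tumor of the other groups, and adapted/C57BL/6 overlapped original/B6129SF1. Among the 1736 genes that were also below the minimum but had a mean of at least 0.1 FPKM, 5.82% did not overlap and were lower in adapted/B6129SF1 than in original/B6129SF1. In adapted/C57BL/6 against adapted/B6129SF1, 4.49% did not overlap and were higher.

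The mean Pax8 level was 0.982 ± 0.546 FPKM in original/B6129SF1, 0.0872 ± 0.0620 in adapted/B6129SF1 and 0.536 ± 0.337 in adapted/C57BL/6 (SD, n = 3 each). The log2(FPKM + 1) difference was -0.83 for adapted/B6129SF1 minus original/B6129SF1 and 0.48 for adapted/C57BL/6 minus adapted/B6129SF1, with p = 0.1 for each in an exact two-sided permutation test. This is the smallest p that 3 against 3 tumors allow, so no such comparison could reach 0.05. For adapted/C57BL/6 minus original/B6129SF1 the difference was -0.36 (exact permutation test, p = 0.4). For all adapted tumors it was -0.60 (exact permutation test, n = 6 and 3, p = 0.0714, where 0.0119 is the smallest possible). Without adapted/C57BL/6 replicate 1, the adapted tumor with the most Pax8, it was -0.71 (exact permutation test, p = 0.0179), and without original/B6129SF1 replicate 2 it was -0.38 (p = 0.286). Over 13 alternatives, including the limma fit without the minimum, the p-value ran from 0.0179 to 0.286 and was under 0.05 in 1, and leaving out single tumors gave differences of -0.74 to -0.38. The 4 comparisons of the 6 genes below the minimum made 24 permutation tests, with p-values that are not adjusted, and the repeats with a tumor left out come on top of these. With the minimum dropped, limma over all genes gave Pax8 adjusted p-values of 0.0694 for adapted/B6129SF1, 0.412 for adapted/C57BL/6 and 0.0925 for all adapted tumors against original/B6129SF1.

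The ratio of Pax8 to Nkx2-1 ranked the tumors in the same order as Pax8 itself. Nkx2-1 varied far less between tumors (1.90-fold, against 92.5-fold for Pax8), so the ratio is not separate evidence. The Pax8 level was 2.61%, 3.85% and 2.05% of the Nkx2-1 level in the original/B6129SF1 tumors, and 0.305%, 0.299% and 0.0739% in the adapted/B6129SF1 tumors. In adapted/C57BL/6 it was 3.01%, 1.17% and 0.648%. The adapted/B6129SF1 tumors were the lowest 3 of the 9, and adapted/C57BL/6 overlapped original/B6129SF1.

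Foxe1, the forkhead factor needed for thyroid migration and for Tg transcription, was listed at 0 in 6 tumors. The 3 tumors in which it appeared were original/B6129SF1 replicate 2 with 0.236 FPKM and adapted/C57BL/6 replicates 1 and 2 with 0.248 and 0.241. These are 3 of the 4 tumors with the most Tg. The groups overlapped, and exact permutation tests gave p = 1 for adapted/B6129SF1 and p = 0.4 for adapted/C57BL/6 against original/B6129SF1.

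Tg varied more than the other members, and much of the variation lay within groups. It measured 0.0153, 30.2 and 12.2 FPKM in the original/B6129SF1 tumors, 0.0431, 0.0382 and 1.20 in adapted/B6129SF1, and 31.0, 11.3 and 0.358 in adapted/C57BL/6. In 4 tumors, original/B6129SF1 replicates 2 and 3 and adapted/C57BL/6 replicates 1 and 2, Tg was above 11, and no adapted/B6129SF1 tumor was among them. Original/B6129SF1 replicate 1 had the lowest Tg of all 9 tumors, so original/B6129SF1 overlapped both adapted groups. The highest and lowest tumors differed 2032-fold, and the SD on the log2(FPKM + 1) scale was 2.18, the 99.5th percentile among genes tested.

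The mean Tg level was 14.1 ± 15.2 FPKM in original/B6129SF1, 0.428 ± 0.671 in adapted/B6129SF1 and 14.2 ± 15.5 in adapted/C57BL/6 (SD, n = 3 each). The SD exceeded the mean in each group. In limma the log2 difference was -2.48 (SE 1.38, 95% interval -5.62 to 0.66, adjusted p = 0.288) for adapted/B6129SF1 minus original/B6129SF1. It was 0.12 (95% interval -3.02 to 3.26, limma adjusted p = 0.971) for adapted/C57BL/6 minus original/B6129SF1 and 2.60 (95% interval -0.54 to 5.74, adjusted p = 0.823) for adapted/C57BL/6 minus adapted/B6129SF1. For all adapted tumors against original/B6129SF1 it was -1.18 (SE 1.20, limma adjusted p = 0.542). These intervals are wide enough to hold both no difference and a large one. The adapted/C57BL/6 difference turned to -0.87 when the 2 tumors richest in muscle transcripts were left out, and ranged from -1.32 to 1.41 when single tumors were left out.

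**Figure D2:**
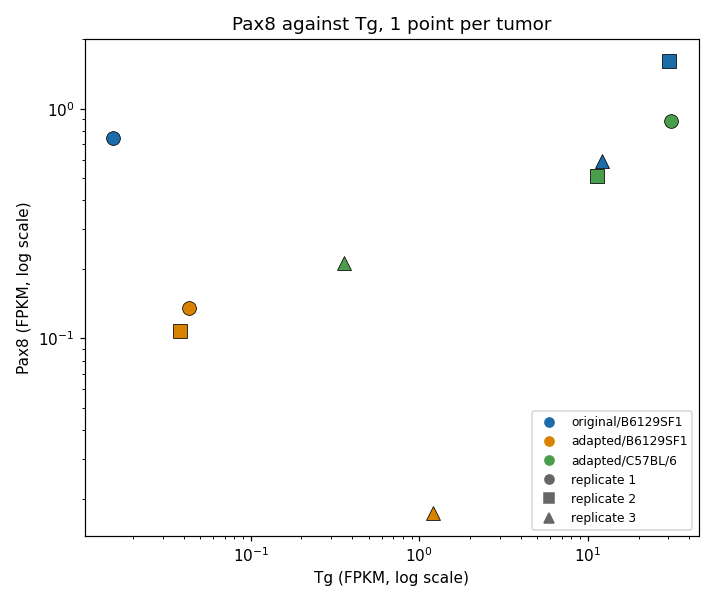
Pax8 against Tg in each tumor, both in FPKM on log axes. Colors give the group and marker shapes the replicate. The 4 tumors with Tg above 11 FPKM have Pax8 from 0.511 to 1.61. Original/B6129SF1 replicate 1 stands apart with Pax8 at 0.748 and Tg at 0.0153.

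Set beside Tg, Pax8 did not keep a fixed proportion. In the 4 tumors with Tg above 11 FPKM there were 2.86 to 5.31 units of Pax8 for each 100 of Tg. Original/B6129SF1 replicate 1 had 4898 units of Pax8 per 100 of Tg, since 6 of the other tumors had less Pax8 than this one and none had less Tg. The ratio was 316 and 284 in adapted/B6129SF1 replicates 1 and 2, 1.44 in adapted/B6129SF1 replicate 3 and 59.3 in adapted/C57BL/6 replicate 3. Nkx2-1 and Hhex did not follow Tg either. Over the 9 tumors Pearson's r with Tg on the log2 scale was 0.10 for Nkx2-1 and 0.27 for Hhex, with Spearman's rho of 0.03 and 0.02, given as a description of 9 tumors that share groups.

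The remaining genes of hormone production were at very low levels. Tshr, the thyrotropin receptor, measured 0.0102, 0.0596 and 0.0355 FPKM in original/B6129SF1, 0, 0 and 0.0588 in adapted/B6129SF1, and 0.0703, 0.0428 and 0.00855 in adapted/C57BL/6. The groups overlapped, and exact permutation p-values ranged from 0.5 to 0.81 over the 4 comparisons. Slc5a5, the iodide symporter, measured 0.0310, 0.0387 and 0.0891 in original/B6129SF1, 0.0290, 0 and 0.0296 in adapted/B6129SF1, and 0.142, 0.0484 and 0.0258 in adapted/C57BL/6. Every adapted/B6129SF1 value of Slc5a5 was below the original values, though the nearest pair, 0.0296 and 0.0310, was almost equal (exact permutation test, p = 0.1). Among the 2521 genes above 0 with a mean under 0.1 FPKM, 3.01% did not overlap in this direction.

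Duox2, the peroxide-producing oxidase, measured 0, 0.00804 and 0.00929 FPKM in original/B6129SF1, 0.0181, 0.123 and 0.0185 in adapted/B6129SF1, and 0, 0 and 0.00808 in adapted/C57BL/6. It was highest in the 3 adapted/B6129SF1 tumors, without overlap with either other group (exact permutation test, p = 0.1 against each), and adapted/B6129SF1 replicate 2 stood well above the rest. Of genes with a mean under 0.1 FPKM, 4.88% were higher without overlap in adapted/B6129SF1 than in original/B6129SF1, and 2.62% were lower without overlap in adapted/C57BL/6 than in adapted/B6129SF1. Dio1, the deiodinase, was listed at 0 in the 3 original/B6129SF1 tumors and in adapted/B6129SF1 replicates 1 and 2. It measured 0.0277 in adapted/B6129SF1 replicate 3 and 0.0221, 0.0602 and 0.0242 in adapted/C57BL/6, so adapted/C57BL/6 lay above original/B6129SF1 (exact permutation test, p = 0.1), as in 5.04% of genes that weak. At these levels a value may stand for a few fragments, and the table holds no counts with which to set an error on it. A value of 0 in the table says that the gene was listed at 0, not that it was absent.

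**Figure D3:**
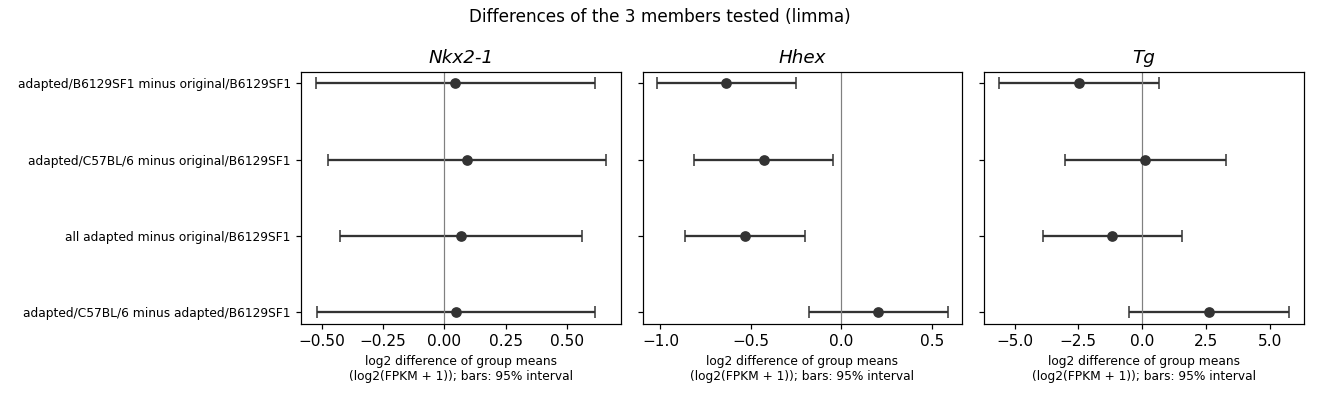
Differences between groups on the log2(FPKM + 1) scale for Nkx2-1, Hhex and Tg, with 1 point per comparison, 1 panel per gene and a separate horizontal scale in each. Bars are 95% confidence intervals from limma. The Nkx2-1 points lie near 0, the Hhex differences of the adapted groups from original/B6129SF1 are -0.63 and -0.43, and the Tg intervals reach from -5.62 to 5.74.

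Some other genes of hormone production, among them Iyd and Slc26a7, were highest in the same 4 tumors as Tg, but many were not. Of their own 4 highest tumors, Duox1, Duoxa1, Slc26a4 and Kcne2 shared 1 with Tg, Kcnq1 and Cybrd1 shared 2 and Ano1 shared 3. Iyd, which recovers iodide from unused iodotyrosines, measured 0, 1.25 and 0.545 in original/B6129SF1, 0, 0 and 0.242 in adapted/B6129SF1, and 1.62, 0.658 and 0.0529 in adapted/C57BL/6. It was at 0 in the 3 tumors with the least Tg. Slc26a7, an anion transporter of the follicular cell, was listed at 0 except in the 4 tumors highest in Tg, where it measured 0.163 and 0.0560 in original/B6129SF1 replicates 2 and 3, and 0.134 and 0.162 in adapted/C57BL/6 replicates 1 and 2.

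The level of Iyd relative to Tg was less scattered than that of Pax8. In the 4 tumors highest in Tg there were 4.14, 4.47, 5.21 and 5.81 units of Iyd per 100 of Tg. In adapted/B6129SF1 replicate 3 and adapted/C57BL/6 replicate 3, where Tg was 1.20 and 0.358, Iyd stood at 20.1 and 14.8 per 100. Iyd thus covered 4.14 to 20.1 in the 6 tumors where it was above 0, whereas Pax8 per 100 of Tg covered 1.44 to 59.3 in the same tumors. Lrp2, the endocytic receptor megalin, also had its highest values in the same 4 tumors as Tg, from 0.0518 to 0.116.

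Of the 28 other genes from the thyroid lists and the 9 members that were above 0 in at least 4 tumors, 4 (14.3%) had the same 4 highest tumors as Tg. These were Slc5a5, Slc26a7, Iyd and Lrp2. Slc5a5 was counted by a small margin near 0, with 0.0387 FPKM in original/B6129SF1 replicate 2 against 0.0310 in replicate 1. Among all 13288 genes above 0 in at least 4 tumors it was 38 (0.286%). Foxe1 was above 0 in too few tumors to be counted. The lists were chosen with earlier results of these data known, so this is given as a description.

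**Figure D4:**
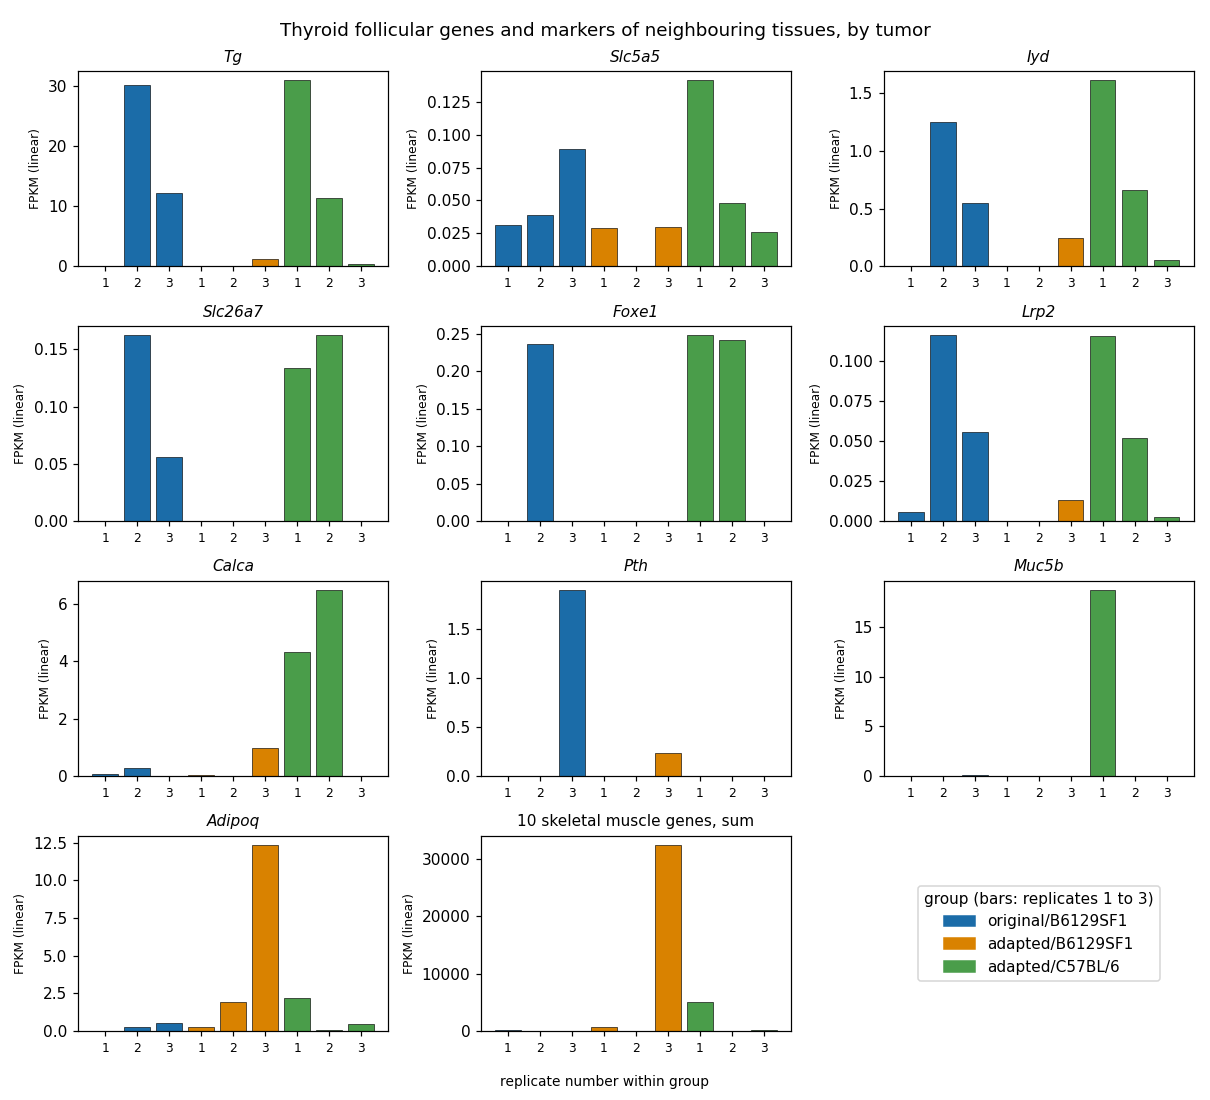
Levels of Tg, other follicular genes and markers of tissues next to the thyroid in each of the 9 tumors, as bars on linear FPKM axes that start at 0, with 1 panel per gene. Colors give the group, and the bars of a group are replicates 1 to 3. Iyd is at 0 in the 3 tumors with the least Tg, Calca is above 4 only in adapted/C57BL/6 replicates 1 and 2, and the summed muscle genes are highest in adapted/B6129SF1 replicate 3.

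Markers of tissues that surround the follicles also varied between tumors of one group. Calca, the calcitonin gene of thyroid C cells, measured 4.34 and 6.49 FPKM in adapted/C57BL/6 replicates 1 and 2, which are among the 4 tumors highest in Tg, and at most 0.978 elsewhere. It measured 0.274 and 0 in original/B6129SF1 replicates 2 and 3, the other tumors of those 4. The summed level of 6 C cell markers was 0.665 to 1.16 in original/B6129SF1, 0.682 to 2.85 in adapted/B6129SF1 and 1.11 to 8.0 in adapted/C57BL/6. Most of its highest value came from Calca. Chgb and Scg2 were also highest in adapted/C57BL/6 replicate 2, at 0.313 and 0.4625. Other markers of the list were highest elsewhere, Calcb (1.05) and Chga (1.365) in adapted/B6129SF1 replicate 1 and Ret (0.537) in adapted/B6129SF1 replicate 3. The part of C cells in the Tg level was not tested.

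Pth, parathyroid hormone, measured 1.90 FPKM in original/B6129SF1 replicate 3, 0.237 in adapted/B6129SF1 replicate 3 and 0 in the other 7 tumors. Over 3 parathyroid markers the sum was 0 to 1.90, 0 to 0.237 and 0.0162 to 0.0445 FPKM in original/B6129SF1, adapted/B6129SF1 and adapted/C57BL/6. The summed level of 6 airway epithelium markers was 0.0740 to 0.837 in original/B6129SF1, 0.613 to 5.33 in adapted/B6129SF1 and 0.393 to 21.9 in adapted/C57BL/6. Most of its highest value came from the mucin gene Muc5b at 18.8 in adapted/C57BL/6 replicate 1, the tumor highest in Tg. Airway epithelium also expresses Nkx2-1, which measured 29.5 FPKM in that tumor, and its part in the Nkx2-1 level was not tested.

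The summed level of 10 skeletal muscle genes was 17.9 to 108 FPKM in original/B6129SF1, 15.1 to 32470 in adapted/B6129SF1 and 3.33 to 5057 in adapted/C57BL/6, the highest values being those of adapted/B6129SF1 replicate 3 and adapted/C57BL/6 replicate 1. These 2 tumors held 6.01% and 1.10% of all FPKM in these genes, against at most 0.136% in any other tumor. Adipocyte genes, 5 in number, summed to 20.5 to 40.3, 39.0 to 284 and 15.4 to 82.1, again highest in adapted/B6129SF1 replicate 3, which had Tg at 1.20 and the lowest Pax8, Nkx2-1 and Hhex of all 9 tumors. Without this tumor the log2 difference of adapted/B6129SF1 from original/B6129SF1 was -0.44 for Hhex (limma adjusted p = 0.0818), 0.29 for Nkx2-1 (adjusted p = 0.437), -2.85 for Tg (adjusted p = 0.311) and -0.79 for Pax8. How much of any thyroid gene's level came from host thyroid or from other tissue in the piece was not tested.

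The genes listed for Tshr signalling that were tested stood at 1 FPKM or more in every tumor, in contrast to the receptor. Their presence in whole tumors does not show signalling through Tshr, and such signalling was not tested. Of the 15 listed genes, 13 were tested and 1, Adcy3, was called higher in each adapted group against original/B6129SF1, with none lower. Over all genes tested, 2.36% were called higher in adapted/B6129SF1 and 2.42% in adapted/C57BL/6. Adcy3, an adenylyl cyclase, measured 6.13, 4.19 and 5.43 FPKM in original/B6129SF1, 17.2, 15.0 and 8.24 in adapted/B6129SF1, and 11.7, 12.8 and 10.3 in adapted/C57BL/6. All adapted tumors were above all original ones, as were those of 8.54% of genes tested. The log2 difference was 1.17 (SE 0.24, limma adjusted p = 0.0243) for adapted/B6129SF1 and 1.02 (adjusted p = 0.0434) for adapted/C57BL/6, and both passed the fold threshold. The adjusted p was under 0.05 in 11 of 17 alternatives for adapted/B6129SF1 (0.00568 to 0.0761) and in 8 of 17 for adapted/C57BL/6 (0.00633 to 0.118). Leaving out original/B6129SF1 replicate 1, 2 or 3 ended both calls by adjusted p (0.0542, 0.0637 and 0.0761 for adapted/B6129SF1 and 0.0772, 0.11 and 0.111 for adapted/C57BL/6). The same held without adapted/B6129SF1 replicate 1 or 2 for that group (0.0522 and 0.0732) and without any 1 of the adapted/C57BL/6 tumors for theirs (0.104 to 0.118). These are not all the settings in which the adjusted p was above 0.05, for either group.

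Gnas, the stimulatory G protein subunit, lay between 510 and 614 FPKM in all tumors and Prkar1a, a regulatory subunit of protein kinase A, between 116 and 152. The median log2 difference of the 13 genes was 0.07 for adapted/B6129SF1 and 0.01 for adapted/C57BL/6 against original/B6129SF1, beside -0.03 for all genes tested in each. Tshb, the pituitary subunit of thyrotropin, was listed at 0 in all 9 tumors.

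The other thyroid lists contained no called gene. Of 11 further genes of hormone synthesis and iodide handling, 3 were tested, and their median log2 difference was -0.49 for adapted/B6129SF1 and -0.33 for adapted/C57BL/6. Ano1, a chloride channel of the follicular cell that passes iodide, measured 36.7, 25.6 and 46.9 FPKM in original/B6129SF1, 24.2, 25.4 and 14.1 in adapted/B6129SF1, and 27.0, 19.5 and 21.7 in adapted/C57BL/6. Every adapted/B6129SF1 value was below the original ones, as in 15.9% of genes tested, although 25.4 and 25.6 were nearly equal. The adapted/C57BL/6 values overlapped the original ones (limma adjusted p = 0.116 for adapted/B6129SF1 and 0.192 for adapted/C57BL/6). Duoxa2, which brings Duox2 to the cell surface, was at most 0.0464 except in adapted/B6129SF1 replicate 2, where it was 0.566 and where Duox2 was also highest.

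Of 7 genes of deiodination and hormone transport, 6 were in the table and 2 were tested. Dio2, which activates thyroxine inside cells, measured 5.31, 15.0 and 7.02 FPKM in original/B6129SF1, 4.58, 2.14 and 4.48 in adapted/B6129SF1, and 4.01, 6.52 and 4.26 in adapted/C57BL/6. Every adapted/B6129SF1 tumor was below every original one, as in 15.9% of genes tested, and adapted/C57BL/6 overlapped original/B6129SF1. The log2 difference was -1.02 (limma adjusted p = 0.115) for adapted/B6129SF1 and -0.68 (adjusted p = 0.292) for adapted/C57BL/6. Dio2 was thus far more abundant than Dio1 in each tumor. Dio3, which inactivates the hormone, was highest in adapted/B6129SF1 replicate 3 at 3.78 and at most 0.389 elsewhere.

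Of 8 other identity genes, 4 were tested and their median log2 difference was -0.34 for adapted/B6129SF1 and -0.10 for adapted/C57BL/6. Sall1 lay between 6.10 and 15.1 FPKM and Eya1, a developmental cofactor, between 4.98 and 12.6. Sall1, Eya1 and Shb had negative log2 differences for both adapted groups. Eya1 (-0.73, limma adjusted p = 0.0821) and Shb (-0.38, limma adjusted p = 0.211) were lower in every adapted/B6129SF1 tumor than in any original one. So were 15.9% of genes tested. In adapted/C57BL/6 both overlapped original/B6129SF1. Bcl2, a survival gene needed in thyroid development, was the 1 gene of the list with an adjusted p under 0.05, and it was named after its values were seen. It measured 2.37, 2.2 and 2.32 in original/B6129SF1, 3.10, 2.98 and 2.80 in adapted/B6129SF1, and 3.66, 3.54 and 3.65 in adapted/C57BL/6. The 3 groups did not overlap. Among genes tested, 13.6% did not overlap in this direction in adapted/B6129SF1 against original/B6129SF1, 14.9% in adapted/C57BL/6 against original/B6129SF1 and 6.32% between the adapted groups. The log2 difference of adapted/C57BL/6 from original/B6129SF1 was 0.49 (limma adjusted p = 0.0296), below the fold threshold. That adjusted p was under 0.05 in 9 of 17 alternatives. The part of leukocytes in the Bcl2 level was not tested.

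Genes that receive or answer thyroid hormone were present in all tumors. Of 11 listed, 8 were tested and none was called. Klf9, a direct target of the hormone receptor, measured 12.4, 37.6 and 29.8 FPKM in original/B6129SF1, 55.3, 25.0 and 32.9 in adapted/B6129SF1, and 39.1, 43.0 and 17.2 in adapted/C57BL/6, with overlap between all groups (limma adjusted p = 0.490 and 0.713 against original/B6129SF1). Hr, another known target, was named after its values were seen. It measured 0.111, 0.179 and 0.138 in original/B6129SF1, 1.08, 0.483 and 0.626 in adapted/B6129SF1, and 0.827, 0.441 and 0.393 in adapted/C57BL/6, so every adapted tumor was above every original one, at levels below the minimum for testing. Among genes below that minimum with a mean of at least 0.1 FPKM, 8.24% did not overlap in that direction. The receptor Thra lay between 18.0 and 35.9 and Thrb between 0.129 and 0.802.

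The genes most like each tested member across the 9 tumors were found among 10262 genes by Pearson's r on the log2(FPKM + 1) scale, as a description in which tumors share groups. For Nkx2-1 they were Usp20, Lefty1 and Trib2 (r = 0.965, 0.962 and 0.959). For Hhex they included Tulp4 and Wasl (r = 0.988 and 0.968). Tulp4 lay between 11.1 and 18.3 FPKM and Wasl, an activator of actin assembly, between 17.5 and 31.9. For Tg they were Ager, Acot2 and Krt19 (r = 0.875, 0.859 and 0.806). Ager, a receptor abundant in lung alveoli, measured 0.443, 5.62 and 2.19 in original/B6129SF1, 1.36, 1.81 and 1.42 in adapted/B6129SF1, and 3.96, 4.30 and 1.49 in adapted/C57BL/6, and Krt19, a simple-epithelium keratin, ran from 0.393 to 2.10. Ager was thus lowest in the tumor with the least Tg and above 2 in the 4 tumors with the most.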

How the data were processed

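RNA was measured in 9 whole tumors, 3 per group, and each tumor was assigned to its group by its label, which numbers biological replicates. The sample labels give a human organism, whereas the hosts, the cell line, the genome build and the gene symbols are mouse. The authors made TruSeq libraries, sequenced paired ends, checked reads with FastQC, aligned them to mm10 with HISAT2 and, per the submitters' processing notes, used Cuffnorm and Cuffdiff. The deposited values are FPKM per gene, normalized by the authors. The library scaling option, the annotation and strand handling are not given in the sources used here, so overlapping and antisense genes could share reads. No mouse annotation was used here, and genes are named by symbol without coordinates or sequences. All 9 value columns were used.

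FPKM holds no counts. The step between low FPKM values gave an approximate depth of 0.966 to 1.35 relative to original/B6129SF1 replicate 1, with 79 to 154 of the 237 to 380 genes compared on the main step. FPKM sums of 457983 to 540514 per tumor are not depths. No 2 tumors shared a value in more than 0.0487% of tested genes. The labels name no batch.

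Values were analyzed as log2(FPKM + 1) with limma 3.58.1 in R 4.3.3 (group means of all 9 tumors, empirical Bayes with a trend, Benjamini-Hochberg adjustment over the 10263 of 17369 genes that reached 1 FPKM in 3 or more tumors). Fold changes on this scale understate those of low genes. Members below this minimum were tested by exact two-sided permutation of tumors. In simulated data for adapted/B6129SF1 against original/B6129SF1, 184 of 200 genes changed by 1.5 on the log2 scale were called (92.0%), with 6 unchanged genes called, among 10341 genes. The changed genes were drawn only from genes with higher mean levels, and normal noise was drawn independently for each gene. The share called was therefore not measured for weak genes or for changes nearer the fold threshold. The members and the 16 gene lists were chosen with earlier results of these data known. Named genes were the 9 members, called genes and up to 3 of the highest mean in each list, marker genes that moved with a member or stood apart in a tumor, and the 3 genes most correlated with each tested member. A few genes that these rules select are not reported here. Thresholds followed the study's. Alternatives were another scaling, pseudocount and filter, a fit of the compared groups only, a replicate block, no trend, adjusted p alone, and each tumor left out.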

Additional observations from a re-analysis of the deposited data

How the results depend on the processing

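Over 458 refits of member differences, 426 were counted as keeping direction and call (for tested members, by adjusted p and fold together) and 31 changed sign. The other 1, Pax8 without adapted/C57BL/6 replicate 1 in all adapted tumors, went under 0.05 in the exact permutation test. Differences that fell to 0 count among the 426. In adapted/B6129SF1 against original/B6129SF1 these included Dio1 without adapted/B6129SF1 replicate 3 and Foxe1 without original/B6129SF1 replicate 2. For the 6 members below the minimum, permutation of 3 against 3 or fewer tumors cannot go below p = 0.1. Those refits could not change their call, so the 426 were partly fixed in advance. Hhex, Duox2 and Dio1 changed sign in none. Without adapted/B6129SF1 replicate 3 and adapted/C57BL/6 replicate 1, the muscle-rich tumors, an alternative chosen after seeing the data, these differences turned negative: Tg (-0.87), Tshr (-0.0131) and Slc5a5 (-0.0215) for adapted/C57BL/6 against original/B6129SF1, Nkx2-1 (-0.0867) between adapted groups and Foxe1 (-0.0240) for all adapted tumors. With single tumors left out, sign changes fell in these ranges: Nkx2-1 for adapted/B6129SF1 (-0.15 to 0.29), adapted/C57BL/6 (-0.0660 to 0.265) and all adapted (-0.0306 to 0.242) against original/B6129SF1 and between adapted groups (-0.20 to 0.24), Tg for adapted/C57BL/6 (-1.32 to 1.41), Tshr for adapted/C57BL/6 (-0.0131 to 0.0297) and all adapted (-0.0247 to 0.00973), Slc5a5 for adapted/C57BL/6 (-0.0215 to 0.0556) and all adapted (-0.0363 to 0.0138), Foxe1 for all adapted (-0.0476 to 0.105), and Adcy3 between adapted groups (-0.447 to 0.0434). The cause was not tested. Members called stayed at 0 except by adjusted p alone, where Hhex made it 1 for all adapted tumors. By adjusted p alone 850, 693 and 1221 genes were called for adapted/B6129SF1, adapted/C57BL/6 and all adapted against original/B6129SF1. Single tumors left out gave 141 to 358, 156 to 347 and 221 to 370 genes, lowest without original/B6129SF1 replicate 3, or, for adapted/C57BL/6, without adapted/C57BL/6 replicate 3. Between adapted groups single tumors left out gave 0 to 6 against 3 (6 without adapted/B6129SF1 replicate 1, 0 without adapted/C57BL/6 replicate 3), no filter gave 1, and the fit of those groups alone gave 0. Replicate numbers do not mark shared animals. Deviations of same-numbered tumors from their group means had r of -0.33 to 0.03 (mean -0.10) between original/B6129SF1 and adapted/B6129SF1. They had 0.07 to 0.30 (mean 0.16) between original/B6129SF1 and adapted/C57BL/6, and -0.39 to 0.61 (mean -0.01) between the adapted groups. In these 3 group pairs, 0, 3 and 2 of 6 tumors were closest to their own number. A replicate block gave 242, 245, 309 and 0 genes for adapted/B6129SF1, adapted/C57BL/6 and all adapted against original/B6129SF1 and between adapted groups, and called no member. FPKM without counts sets no error on values near 0.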

Other observations

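Among epithelial markers, the keratin Krt8 was lower in the adapted tumors. It measured 553, 363 and 615 FPKM in original/B6129SF1, 180, 283 and 153 in adapted/B6129SF1, and 222, 221 and 241 in adapted/C57BL/6. Every adapted tumor was below every original one, as in 10.6% of genes tested. Krt8 fell by 1.32 on the log2 scale (SE 0.25, limma adjusted p = 0.0189) in adapted/B6129SF1 and by 1.12 (adjusted p = 0.0346) in adapted/C57BL/6, where 0.857% and 0.672% of genes tested were called lower. The limma adjusted p was under 0.05 in 12 of 17 alternatives for adapted/B6129SF1 (0.0144 to 0.0742) and in 9 of 17 for adapted/C57BL/6 (0.0185 to 0.116). It was above 0.05 with the replicate block (0.0557 and 0.0869), without original/B6129SF1 replicate 1 (0.0679 and 0.109), without original/B6129SF1 replicate 3 (0.0742 and 0.116), without the 2 muscle-rich tumors (0.0608 and 0.0615) and, for adapted/C57BL/6, without any 1 of its tumors (0.0897 to 0.107). It was also above 0.05 for adapted/B6129SF1 with only the groups compared (0.0545) and for adapted/C57BL/6 with no filter (0.0585). Its partner Krt18 measured 207 to 390 in original/B6129SF1, 110 to 256 in adapted/B6129SF1 and 138 to 195 in adapted/C57BL/6 (limma adjusted p = 0.116 and 0.131). Epcam overlapped between all groups. Cdh1 overlapped between original/B6129SF1 and each adapted group, and it was higher in every adapted/C57BL/6 tumor than in any adapted/B6129SF1 tumor, as were 6.32% of genes tested. Of the 10 epithelial genes 6 were tested, and 1, Krt8, was called, lower, in each comparison with original/B6129SF1.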
